A study of Homo sapiens with 12 samples.

Results

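ABC transporters are the ATP-binding cassette proteins, a family defined by a paired nucleotide-binding fold that uses ATP hydrolysis to move drugs, sterols, phospholipids, heme, peptides and conjugates across membranes. Its genes were taken here as all rows of the count table whose identifier maps to a symbol made of ABC, a subfamily letter from A to G and a number. Of 57783 genes in the table, 45 met this rule after ABCC13, a pseudogene, was left out. Of those 45, 30 passed the filter on low counts and were tested among 16327 genes, and 15 had too few counts to test. By subfamily, the genes passing the filter were 7 of 12 ABCA, 6 of 9 ABCB, 7 of 11 ABCC, 3 of 4 ABCD, the single ABCE, 3 of 3 ABCF and 3 of 5 ABCG genes.

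RNA was sequenced from MDA-MB-468, an established line of triple-negative breast cancer, a class without estrogen and progesterone receptors or amplified HER2. Cultures had received either the solvent DMSO or 0.5 µM EPZ5676, which blocks DOT1L, the enzyme that methylates lysine 79 of histone H3, for 10 days, and were then sorted into ALDH1+ and ALDH1- cells. Crossing treatment with population gave 4 groups, 3 libraries each, which the labels call biological replicates. All groups share this parental line and no genotype was altered, so the values describe 1 cell line at 1 dose and 1 time. The sources used here do not give how ALDH1 was stained and gated.

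The family is best known in cancer cells for the export of drugs. ABCB1 (P-glycoprotein), ABCG2 (breast cancer resistance protein) and several ABCC proteins (multidrug resistance proteins) pump anticancer drugs and their conjugates out through the plasma membrane. Most ABCA proteins and ABCG1 move cholesterol and phospholipids, ABCB8 and ABCB10 sit in mitochondria, ABCD proteins feed fatty acids to peroxisomes or cobalamin out of lysosomes, and ABCE1 and the ABCF proteins have no membrane domains and act on ribosomes and translation. Transcription of ABCA1 and ABCG1 is under the liver X receptors, which sense oxysterols. ALDH activity is used to enrich tumor cells with stem-like properties, in which drug pumps have often been studied.

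The results below turn on 6 genes that were higher in EPZ5676. RefSeq windows (build GRCh38.p14) of the 250 bases before a transcription start were held for 5 of these 6, and for 24 of the 30 tested genes. They are shown for 4 genes to set the starts of genes that moved together side by side, 5′ to 3′ on the gene's strand, each ending at the base before the start. Capitals mark matches on either strand to the GC box GGGCGG, the CCAAT box, the TATA box TATAAA, the E-box CACGTG, the AP-1 site TGAGTCA or the NRF2 element TGACNNNGC.
ABCA1, chr9:104928156-104928405, minus strand: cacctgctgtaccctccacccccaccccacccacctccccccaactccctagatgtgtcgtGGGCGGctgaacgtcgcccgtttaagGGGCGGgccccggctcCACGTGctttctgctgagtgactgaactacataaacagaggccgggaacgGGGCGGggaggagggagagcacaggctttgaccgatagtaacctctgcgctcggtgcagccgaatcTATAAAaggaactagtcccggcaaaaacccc
ABCB1, chr7:87600885-87601134, minus strand: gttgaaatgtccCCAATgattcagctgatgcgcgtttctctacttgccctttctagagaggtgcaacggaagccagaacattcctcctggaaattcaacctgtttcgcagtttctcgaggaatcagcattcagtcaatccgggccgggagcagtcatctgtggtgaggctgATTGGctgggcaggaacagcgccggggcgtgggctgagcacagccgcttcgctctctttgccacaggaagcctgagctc
ABCC4, chr13:95301452-95301701, minus strand: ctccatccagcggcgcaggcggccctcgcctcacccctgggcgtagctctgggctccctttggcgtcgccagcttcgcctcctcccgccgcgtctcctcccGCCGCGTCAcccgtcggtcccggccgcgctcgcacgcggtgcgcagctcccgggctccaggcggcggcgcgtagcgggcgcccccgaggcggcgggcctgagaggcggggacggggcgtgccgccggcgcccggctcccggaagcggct
ABCA5, chr17:69327134-69327383, minus strand: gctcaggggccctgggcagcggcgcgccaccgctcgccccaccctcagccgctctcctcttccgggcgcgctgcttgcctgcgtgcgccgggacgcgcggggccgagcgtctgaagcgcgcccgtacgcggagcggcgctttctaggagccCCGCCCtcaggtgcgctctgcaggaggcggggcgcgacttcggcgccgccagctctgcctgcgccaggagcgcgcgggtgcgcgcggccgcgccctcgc
No motif was shared by all 4 windows. ABCA1 holds 3 GC boxes that begin 189, 163 and 97 bases before the start, an E-box at 147 and a TATA box at 31. The ABCB1 window, 1 of 2 in the table for this gene, holds CCAAT boxes at 238 and 79, and the other ABCB1 window holds no match. ABCC4 holds an NRF2 element match at 149 in a window of 80.4% G and C, and ABCA5 holds a GC box at 99 in a window of 79.2% G and C, against a median of 58% over all windows. Among 34943 such windows of all genes, 42.5% hold a GC box, 32% a CCAAT box, 10.8% a TATA box, 6.32% an E-box, 4.22% an AP-1 site and 10.9% an NRF2 element match. A strict direct repeat of the kind bound by liver X receptors (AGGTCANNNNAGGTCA) was searched too. It occurs in 0.0143% of all windows, so its absence from a few windows is uninformative. Neither it nor the AP-1 letters occur in any of the 37 windows of the tested family members. Looser forms of the repeat were not searched, so whether these windows, that of ABCA1 included, hold a liver X receptor site was not tested. These matches describe letters in a short window and no binding was measured.

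Levels of the family spanned more than 3 orders of magnitude. Levels between genes are compared as CPM per kb, that is counts per 1000000 counts of the scaled library divided by the summed exon length in kilobases. The highest were the proteins without membrane domains. ABCF1, which acts in translation initiation, had a mean over all 12 libraries of 69.1 CPM per kb (range 63.4 to 74). ABCF2 followed at 40.3 (35.4 to 46.5), and ABCE1, which splits ribosomes for recycling, at 35.7 (33.8 to 40). The ranges of ABCF2 and ABCE1 overlap. ABCD3, a peroxisomal fatty acid transporter, was next at 26.2 (23.4 to 29.2), and mitochondrial ABCB10 had 15.4 (13.2 to 18.2). The leading drug pump was ABCC3, an exporter of bile salts and glucuronides, at 12.3 (10.1 to 15.2), whose range overlaps that of ABCB10. Genes from ABCF3 at 8.09 down to ABCB9 at 1.34 followed without a gap. At the low end stood ABCA1 at 0.368, ABCB1 at 0.253, ABCB6 at 0.153, ABCG4 at 0.0927, ABCA5 at 0.0624, ABCC11 at 0.0523 and ABCG2 at 0.0428.

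**Figure D1:**
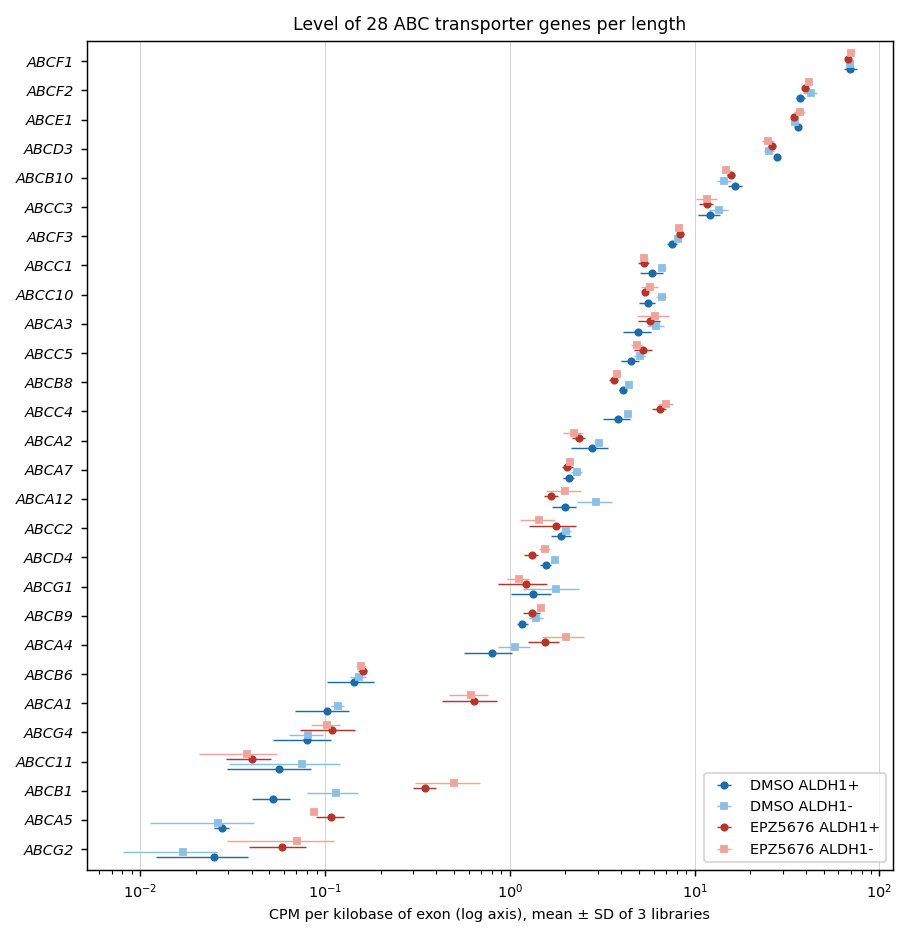
Mean level of 28 of the tested ABC transporter genes in CPM per kilobase of exon on a log axis, with SD over 3 libraries, for the 4 groups. ABCF1, ABCF2 and ABCE1 lie at the top in every group, and the red (EPZ5676) points stand to the right of the blue (DMSO) points for ABCC4, ABCA4, ABCA1, ABCB1, ABCA5 and ABCG2.

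Counts of 2 genes in this order carry a specific uncertainty. In the GENCODE 29 annotation, used here for lengths and overlaps, 54.7% of the exon bases of ABCB6 and 45.8% of those of ABCF2 are shared with an overlapping gene model on the same strand (AC068946.2 and AC021097.2), and how such reads were assigned is not given. ABCB9 shares 20.7% of its exon bases with AC026362.1 on the other strand, ABCD4 shares 7.12% with AC005519.1 and ABCA5 shares 2.42% with ABCA10. ABCB1 and ABCB4 are close paralogs, and how reads that fit both were handled is not given.

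The first question was what EPZ5676 did to the family in each sorted population. In ALDH1+ cells, 5 of the 30 tested members were called higher and 1 lower. In ALDH1- cells, 6 were called higher and 4 lower. The 5 genes ABCB1, ABCA1, ABCA5, ABCA4 and ABCC4 rose in both populations. ABCG2, called in ALDH1- cells, and ABCA5 passed the filter on low counts only through EPZ5676 libraries, so the counts of members called higher are a description and support nothing. A call here is an adjusted p under 0.05 in edgeR's quasi-likelihood test, with Benjamini-Hochberg adjustment over all 16327 genes. In ALDH1+ cells, 17.8% of all genes tested were called higher and 13.7% lower. In ALDH1- cells the shares of all genes were 13.6% higher and 9.04% lower. Taken by groups that do not overlap, 6 members were higher and 3 lower in ALDH1+ cells, where 22% and 19.3% of all genes were, and 6 higher and 10 lower in ALDH1- cells, where 19.7% and 19.4% were. The members' counts were not tested against these shares. The 10 of 30 lower without overlap in ALDH1- cells stand above their share of 19.4%, and the 1 of 30 called lower in ALDH1+ cells below its 13.7%. The results lie in which members moved and by how much. With the replicate number as a block, calls were 7 higher and 3 lower in ALDH1+ cells (22.2% and 19.6% of all genes) and 6 higher and 8 lower in ALDH1- cells (17.4% and 14.8%). The members' median log2 fold change was -0.02 in ALDH1+ cells and -0.03 in ALDH1- cells, beside -0.01 and -0.02 for all genes. Of the 30 members, 3 were called with at least a doubling in ALDH1+ cells and 4 in ALDH1- cells, and none was called with at least a halving in either. The doubled genes include ABCA5 and, in ALDH1- cells, ABCG2. The share of all genes that reached these sizes was not taken, so these counts are a description only. RNA was bulk, so more cells with a transcript and more transcript per cell cannot be told apart. Nothing beyond the word biological describes how separate the cultures were, and p-values measure the spread between these libraries.

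**Figure D2:**
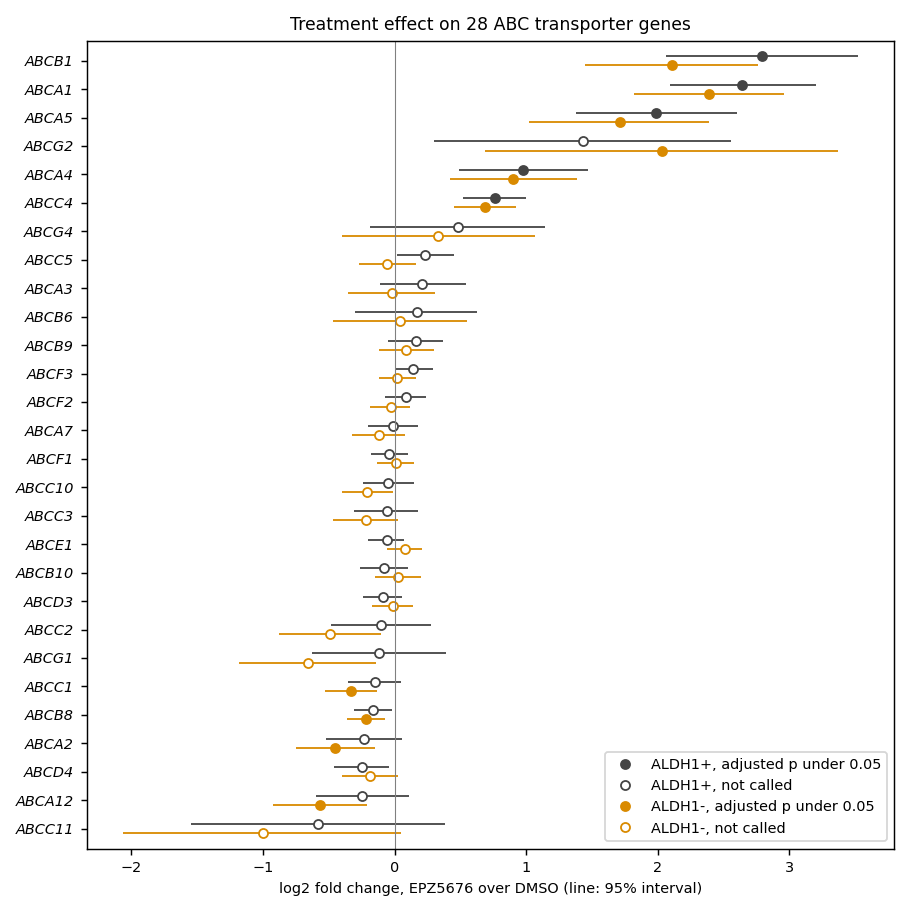
Log2 fold change of EPZ5676 over DMSO for 28 of the tested members in ALDH1+ (grey) and ALDH1- (orange) cells, with 95% intervals; filled points have an adjusted p under 0.05 in edgeR. ABCB1, ABCA1, ABCA5, ABCG2, ABCA4 and ABCC4 lie farthest to the right of 0 in both populations, and open points, most of them near 0, are the genes not called.

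Most drug efflux pumps were not called in either population. Of 10 pump genes, 9 were tested, and ABCB5 had 3 counts in all libraries together. In ALDH1+ cells 2 of the 9 were called higher (ABCB1, ABCC4) and 0 lower, with a median log2 fold change of -0.05. In ALDH1- cells 3 were called higher (ABCB1, ABCC4, ABCG2) and 1 lower (ABCC1), with a median of -0.21. Of all genes tested, 17.8% were called higher and 13.7% lower in ALDH1+ cells, and 13.6% and 9.04% in ALDH1- cells. The pump counts were not tested against these shares. They include ABCG2, which passed the filter only through EPZ5676 libraries, and are a description only.

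ABCB1, the P-glycoprotein gene, had the largest fold change of the 30 tested members in ALDH1+ cells. Its level was 0.364, 0.319 and 0.23 CPM in the DMSO ALDH1+ libraries numbered 1 to 3 and 2.32, 2.01 and 1.75 CPM in the EPZ5676 ALDH1+ libraries. In ALDH1- cells it was 0.88, 0.476 and 0.653 CPM in DMSO and 3.96, 2.98 and 1.7 CPM in EPZ5676. The DMSO ALDH1+ values of ABCB1 rest on 10, 8 and 13 counts, and 1 of those 3 libraries reached the filter's cutoff of 0.359 CPM. Every EPZ5676 library lay above every DMSO library, and the groups did not overlap in either population. The fold change was 6.93 in ALDH1+ cells (log2 2.79, SE 0.34, edgeR adjusted p = 2.4e-05) and 4.3 in ALDH1- cells (log2 2.11, SE 0.31, edgeR adjusted p = 1.6e-04). Within each replicate number the ratio of EPZ5676 to DMSO for ABCB1 was 6.37, 6.29 and 7.62 in ALDH1+ cells and 4.5, 6.26 and 2.61 in ALDH1- cells. The level stayed low: ABCB1 made up 0.153% of the summed per-length level of the 9 pumps in DMSO ALDH1+ cells and 0.962% in EPZ5676 ALDH1+ cells, and 0.298% and 1.34% in ALDH1- cells.

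ABCC4 (MRP4), an exporter of cyclic nucleotides, prostaglandins and nucleoside drugs, rose from a much higher level. It had 34.8, 37.8 and 26.9 CPM in DMSO ALDH1+ libraries and 61.4, 51.9 and 54.3 CPM in EPZ5676 ALDH1+ libraries. In ALDH1- cells the values were 37.1, 37.4 and 38 CPM in DMSO and 64.1, 62.6 and 54.1 CPM in EPZ5676. All 6 EPZ5676 libraries exceeded all 6 DMSO libraries. The fold change was 1.69 in ALDH1+ cells (log2 0.76, SE 0.11, edgeR adjusted p = 1.2e-04) and 1.61 in ALDH1- cells (log2 0.69, SE 0.11, edgeR adjusted p = 3.9e-04). The share of ABCC4 in the pumps' summed per-length level went from 11.3% ± 1.1 to 17.8% ± 1.1 (SD, n = 3) in ALDH1+ cells and from 11.3% ± 0.8 to 19% ± 0.4 in ALDH1- cells.

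ABCG2 was close to the limit of detection. The deposited counts in ALDH1+ libraries were 3, 5 and 4 with DMSO and 5, 27 and 11 with EPZ5676, and in ALDH1- libraries 3, 1 and 3 with DMSO and 12, 13 and 3 with EPZ5676. In the same order these are 0.109, 0.199 and 0.0708 CPM, 0.178, 0.338 and 0.371 CPM, 0.11, 0.034 and 0.115 CPM, and 0.489, 0.456 and 0.119 CPM. Groups overlapped in ALDH1+ cells, and in ALDH1- cells EPZ5676 library 3 lay just above the highest DMSO library. The log2 fold change was 1.43 (SE 0.53, edgeR adjusted p = 0.052) in ALDH1+ cells, not called, and 2.03 (SE 0.63, edgeR adjusted p = 0.03) in ALDH1- cells, called. ABCG2 passed the filter only through EPZ5676 libraries, of which 3 reached its cutoff of 0.359 CPM against 0 of 6 DMSO libraries, so it could enter the test only by being higher there. The ALDH1- call was lost in 5 of the fits that each left out 1 ALDH1- library, with edgeR adjusted p from 0.054 to 0.12, and by limma-voom (log2 1.76, adjusted p = 0.057).

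**Figure D3:**
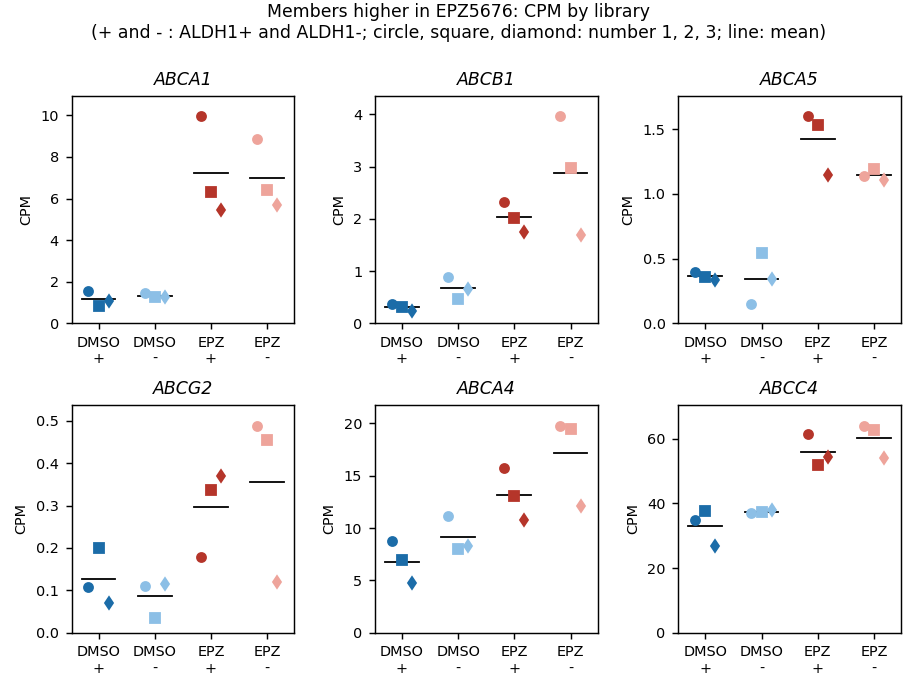
CPM in each of the 12 libraries for the 6 genes called higher in EPZ5676 in at least 1 population; marker shape gives the replicate number and the line the mean of 3. ABCA1, ABCB1, ABCA5 and ABCC4 do not overlap between treatments across all 12 libraries, whereas ABCG2 libraries overlap and ABCA4 overlaps only when both populations are pooled.

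ABCC1 (MRP1), which exports glutathione conjugates and many anticancer drugs, was the pump called lower. It had 53.6, 48.9 and 49.4 CPM in DMSO ALDH1- libraries and 41.3, 41.4 and 38 CPM in EPZ5676 ALDH1- libraries, with no overlap, a log2 fold change of -0.33 (SE 0.10) and an edgeR adjusted p of 0.021. In ALDH1+ cells it had 51.3, 43.5 and 38.9 CPM in DMSO and 42.9, 37.4 and 40.3 CPM in EPZ5676. These overlap, and the log2 fold change of ABCC1 there was -0.15 (95% interval -0.35 to 0.05). Its call in ALDH1- cells was lost without DMSO library 1 (edgeR adjusted p = 0.078), EPZ5676 library 1 (0.051) or EPZ5676 library 3 (0.073).

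ABCC2 (MRP2), an exporter of conjugates and of platinum drugs, had 16, 14.9 and 16.7 CPM in DMSO ALDH1- libraries and 10.4, 9.4 and 14 CPM in EPZ5676 ALDH1- libraries. The groups did not overlap, yet the log2 fold change of -0.49 (SE 0.18) was not called (edgeR adjusted p = 0.067). With the replicate number as a block it was called (adjusted p = 0.011). In ALDH1+ cells ABCC2 had 17, 13.7 and 13.9 CPM in DMSO and 11.6, 11.6 and 18.5 CPM in EPZ5676, where library 3 was the highest of all 12, and the log2 fold change was -0.10 (95% interval -0.48 to 0.28).

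ABCC3 (MRP3), the most abundant pump per length, had 132, 117 and 99.9 CPM in DMSO ALDH1+, 121, 110 and 103 in EPZ5676 ALDH1+, 146, 130 and 117 in DMSO ALDH1- and 123, 118 and 96.7 in EPZ5676 ALDH1- libraries. Treatments overlapped in both populations. Its log2 fold changes were -0.06 (95% interval -0.31 to 0.18) and -0.22 (-0.47 to 0.03). With the replicate block the ALDH1- value of ABCC3 was called (edgeR adjusted p = 0.0061).

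ABCC5 (MRP5), an exporter of cyclic nucleotides and nucleotide analogs, had 52.2, 57 and 45.2 CPM in DMSO ALDH1+, 53.1, 61.7 and 66.1 in EPZ5676 ALDH1+, 56.9, 62 and 54.1 in DMSO ALDH1- and 50.9, 58 and 57.6 in EPZ5676 ALDH1- libraries. Neither population was called, with log2 fold changes of 0.23 (SE 0.10, edgeR adjusted p = 0.088) and -0.06 (SE 0.10, adjusted p = 0.74). With the replicate block the ALDH1+ value of ABCC5 was called higher (adjusted p = 0.033).

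ABCC10 (MRP7), which confers resistance to taxanes when overexpressed, had 49.1, 45.4 and 40.3 CPM in DMSO ALDH1+, 42.1, 42.9 and 45.4 in EPZ5676 ALDH1+, 57.4, 51.4 and 51.6 in DMSO ALDH1- and 47.4, 50.7 and 41 in EPZ5676 ALDH1- libraries. Only in ALDH1- cells did the treatments not overlap, and the log2 fold changes of -0.05 (95% interval -0.24 to 0.15) and -0.21 (-0.40 to -0.01) were not called. ABCC11 (MRP8) was near the filter's cutoff, from 0.175 to 0.916 CPM, and its log2 fold changes of -0.58 (-1.55 to 0.38) and -1.0 (-2.06 to 0.05) have intervals too wide to place it.

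The pumps' summed level per length was 33.9 ± 4.1 CPM per kb (SD, n = 3) in DMSO ALDH1+, 36.2 ± 1.1 in EPZ5676 ALDH1+, 38.5 ± 2.3 in DMSO ALDH1- and 36.6 ± 2.6 in EPZ5676 ALDH1- cells. The libraries of both treatments overlapped in each population. ABCC3 held 35.6% of this sum in DMSO ALDH1+ and 32% in EPZ5676 ALDH1+ cells, and ABCC1 held 17.3% and 14.6%. The sum of transcript levels is not a measure of transport.

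Sterol and phospholipid transporters contained the other rises. Of 17 genes, 9 were tested. In ALDH1+ cells 3 were called higher (ABCA1, ABCA5, ABCA4) and 0 lower, with a median log2 fold change of 0.21. In ALDH1- cells the same 3 were called higher and 2 lower (ABCA2, ABCA12), with a median of -0.02. The shares of all genes called higher and lower were 17.8% and 13.7% in ALDH1+ cells and 13.6% and 9.04% in ALDH1- cells. These counts were not tested against the shares. They include ABCA5, which passed the filter only through EPZ5676 libraries, and are a description only.

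ABCA1 loads cholesterol and phospholipid onto apolipoproteins at the plasma membrane. It had 1.56, 0.836 and 1.06 CPM in DMSO ALDH1+ and 9.95, 6.3 and 5.46 CPM in EPZ5676 ALDH1+ libraries. In ALDH1- cells the values were 1.47, 1.26 and 1.27 CPM in DMSO and 8.85, 6.42 and 5.71 CPM in EPZ5676. The lowest EPZ5676 library, 5.46 CPM, lay far above the highest DMSO library, 1.56 CPM. The fold change was 6.25 in ALDH1+ cells (log2 2.64, SE 0.26, edgeR adjusted p = 3.3e-06) and 5.24 in ALDH1- cells (log2 2.39, SE 0.27, edgeR adjusted p = 1.6e-05). By replicate number the ratio for ABCA1 was 6.36, 7.54 and 5.14 in ALDH1+ cells and 6.04, 5.1 and 4.51 in ALDH1- cells.

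ABCA5, a lysosomal and late endosomal transporter linked to cholesterol efflux, had 0.4, 0.358 and 0.336 CPM in DMSO ALDH1+ and 1.6, 1.53 and 1.15 CPM in EPZ5676 ALDH1+ libraries. In ALDH1- cells it had 0.147, 0.544 and 0.346 CPM in DMSO and 1.14, 1.19 and 1.11 CPM in EPZ5676. Treatments did not overlap. Only 2 of 6 DMSO libraries of ABCA5 reached the filter's cutoff of 0.359 CPM against 6 of 6 EPZ5676 libraries, so with 3 libraries needed it entered the test through the group where it was high. The log2 fold change was 1.99 in ALDH1+ cells (SE 0.28, edgeR adjusted p = 9.9e-05) and 1.71 in ALDH1- cells (SE 0.32, edgeR adjusted p = 0.0013).

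ABCA4, known as the retinoid flippase of photoreceptors, had 8.73, 6.93 and 4.74 CPM in DMSO ALDH1+ and 15.7, 13.1 and 10.8 CPM in EPZ5676 ALDH1+ libraries. In ALDH1- cells it had 11.2, 8.03 and 8.25 CPM in DMSO and 19.8, 19.5 and 12.1 CPM in EPZ5676. Within each population the treatments did not overlap, and library 3 was the lowest of the EPZ5676 values in both. The log2 fold change was 0.98 in ALDH1+ cells (SE 0.23, edgeR adjusted p = 0.0046) and 0.90 in ALDH1- cells (SE 0.23, edgeR adjusted p = 0.0099).

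ABCA12, a lipid transporter of the skin barrier, was called lower in ALDH1- cells. It had 34.5, 24.9 and 23.8 CPM in DMSO ALDH1- and 23, 18.2 and 15 CPM in EPZ5676 ALDH1- libraries, a log2 fold change of -0.57 (SE 0.17, edgeR adjusted p = 0.023). DMSO library 1 stood above the rest. The call of ABCA12 was lost without that library (log2 -0.38, edgeR adjusted p = 0.12), without EPZ5676 ALDH1- library 2 (-0.55, 0.078) or without EPZ5676 ALDH1- library 3 (-0.43, 0.089). In ALDH1+ cells the values of ABCA12 were 20.8, 19.8 and 15.7 CPM in DMSO and 16.3, 14.2 and 16.9 CPM in EPZ5676, which overlap, with a log2 fold change of -0.25 (95% interval -0.60 to 0.11).

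ABCA2, an endolysosomal transporter linked to sphingolipid and sterol handling, had 35.7, 35.3 and 33.5 CPM in DMSO ALDH1- and 27.9, 26.9 and 21.8 CPM in EPZ5676 ALDH1- libraries, with no overlap and a log2 fold change of -0.45 (SE 0.14, edgeR adjusted p = 0.032). In ALDH1+ cells it ran 39.7, 31.1 and 24.9 CPM in DMSO and 29.7, 25.3 and 26.3 CPM in EPZ5676. The wide DMSO ALDH1+ values of ABCA2 overlap the treated ones, and the log2 fold change of -0.23 (95% interval -0.52 to 0.06) was not called. The ALDH1- call was lost when any of 5 of the 6 ALDH1- libraries was left out, with edgeR adjusted p from 0.061 to 0.12.

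ABCG1, which exports cholesterol to high-density lipoprotein and shares liver X receptor control with ABCA1, was not called higher in either population. It had 15, 8.6 and 8.95 CPM in DMSO ALDH1- and 7.59, 7.19 and 5.79 CPM in EPZ5676 ALDH1- libraries, where every treated library was lower. The log2 fold change of ABCG1 was -0.66 (SE 0.24, edgeR adjusted p = 0.067) and was called only with the replicate block (adjusted p = 8.5e-04). In ALDH1+ cells ABCG1 overlapped, from 6.8 to 10.5 CPM in DMSO and from 5.39 to 9.77 CPM in EPZ5676, with a log2 fold change of -0.12 (95% interval -0.63 to 0.39). ABCA3, ABCA7 and ABCG4 were not called in either population, with log2 fold changes from -0.12 (ABCA7 in ALDH1- cells) to 0.48 (ABCG4 in ALDH1+ cells). With the block, ABCA3, the surfactant lipid transporter, was called higher in ALDH1+ cells (log2 0.21, edgeR adjusted p = 0.022).

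**Figure D4:**
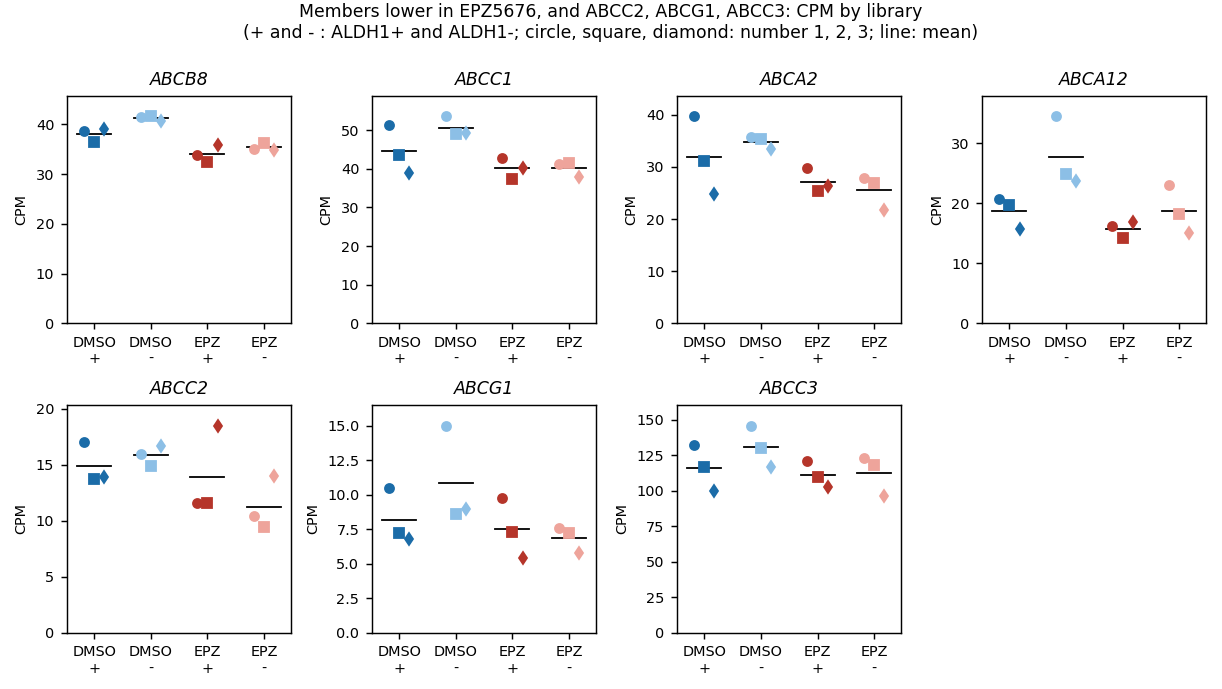
CPM in each of the 12 libraries for 4 genes called lower in EPZ5676 in ALDH1- cells and for ABCC2, ABCG1 and ABCC3; marker shape gives the replicate number and the line the mean of 3. ABCB8 shows a small, tight difference in both populations, whereas ABCC1, ABCA2 and ABCA12 overlap between treatments in ALDH1+ cells and not in ALDH1- cells.

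Transporters of mitochondria and lysosomes from the ABCB subfamily work as dimers. ABCB8, a mitochondrial transporter linked to iron export, had 38.6, 36.5 and 39.1 CPM in DMSO ALDH1+, 33.8, 32.4 and 35.8 in EPZ5676 ALDH1+, 41.4, 41.6 and 40.6 in DMSO ALDH1- and 35.1, 36.3 and 34.9 in EPZ5676 ALDH1- libraries, without overlap between treatments. The log2 fold change was -0.16 (SE 0.07, edgeR adjusted p = 0.073) in ALDH1+ cells, not called, and -0.22 (SE 0.07, adjusted p = 0.03) in ALDH1- cells, called. Leaving out any of the 6 ALDH1- libraries ended that call of ABCB8 (edgeR adjusted p 0.06 to 0.1), while with the block both populations were called (0.042 and 0.015). ABCB10, ABCB6 and the lysosomal peptide transporter ABCB9 were not called, and their log2 fold changes lay between -0.08 and 0.17.

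In the ABCD subfamily the test without a replicate block made 0 calls in either population. ABCD4, which helps release cobalamin from lysosomes, had 14.6, 12.7 and 13.6 CPM in DMSO ALDH1+, 12.2, 11.9 and 10.3 in EPZ5676 ALDH1+, 16.2, 14.8 and 15.1 in DMSO ALDH1- and 14.1, 14 and 12.4 in EPZ5676 ALDH1- libraries. Every treated library was below every control library of its population. In ALDH1+ cells the log2 fold change of -0.25 (SE 0.10) was not called (edgeR adjusted p = 0.066), but the fit with the block called it lower (0.021), and in ALDH1- cells that of -0.19 was called in neither fit (0.21 and 0.1). Averaged over both populations ABCD4 was called lower (log2 -0.22, SE 0.07, edgeR adjusted p = 0.021), and this call was lost without EPZ5676 ALDH1- library 3 (0.051). In that averaged comparison 6 members were called higher and 6 lower, beside 21.9% and 20% of all genes, and with the block 6 and 10, beside 24.9% and 25%. ABCD3 had log2 fold changes of -0.09 and -0.01.

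The 4 proteins without membrane domains varied least. ABCE1, ABCF1, ABCF2 and ABCF3 had log2 fold changes from -0.06 to 0.14 in ALDH1+ cells and from -0.03 to 0.08 in ALDH1- cells, and 0 were called. Their 95% intervals reached no farther than -0.20 and 0.29 on the log2 scale. ABCF1, for example, had 322, 287 and 335 CPM in DMSO ALDH1+ and 315, 296 and 307 CPM in EPZ5676 ALDH1+ libraries.

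Whether the treatment acted differently in ALDH1+ and ALDH1- cells was tested directly. None of the 30 members passed the test of the difference between the treatment effects (edgeR adjusted p 0.98 to 0.99), 0 did so at an unadjusted p under 0.05, and DESeq2, limma-voom and the replicate block also called 0. With the block, 3 members (ABCG1, ABCA3, ABCC5) had an unadjusted p under 0.05, each with the higher log2 fold change in ALDH1+ cells. Without the block, 0% of all 16327 genes were called. At an unadjusted p under 0.05 in that fit, 2.2% of all genes were higher and 1.45% lower. For the unadjusted count with the block no such share was taken. A gene called in only 1 population above is thus not shown to differ between them. The difference (ALDH1+ minus ALDH1-) for ABCB1 was 0.69 (95% interval -0.35 to 1.73), for ABCG2 -0.60 (-2.47 to 1.27), for ABCC1 0.18 (-0.10 to 0.47) and for ABCA1 0.25 (-0.56 to 1.07). These intervals come from the fit without the replicate block, which leaves out the pairing by replicate number, and are wide enough to hold sizeable differences. In that fit the difference for ABCC5, 0.29 (-0.01 to 0.59), had the smallest unadjusted edgeR p, 0.059.

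The other comparison set ALDH1+ against ALDH1- cells within a treatment. In DMSO, 0 of 30 members were called in either direction by edgeR. At an unadjusted p under 0.05, 1 was higher and 6 lower, beside 8.13% and 9.65% of all genes. The edgeR fit called 0% of all genes. DESeq2 called 0 members higher and 1 lower and limma-voom called 0, and their shares of all genes were not taken. Of the 30 members, 24 had a negative log2 fold change for ALDH1+ over ALDH1-. The median was -0.16 for the members and -0.01 for all genes. The share of all genes with a negative value was not taken. In 8 of 30 every DMSO ALDH1+ library was below every DMSO ALDH1- library, against 12.4% of all genes, and in 1 of 30, ABCD3, every one was above, against 10.6%.

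ABCB1 showed the largest such difference. Its DMSO ALDH1+ libraries, listed above, held 10, 8 and 13 counts of it and all lay below the DMSO ALDH1- libraries. The log2 fold change was -1.2 (SE 0.42, edgeR unadjusted p = 0.012, adjusted p = 0.19). ABCA12 followed with -0.57 (SE 0.16, edgeR adjusted p = 0.17). The replicate block called 0 members higher and 4 lower in DMSO ALDH1+ cells, where 3.45% and 5.02% of all genes were called. They were ABCA12 (edgeR adjusted p = 0.014), ABCA3 (0.017), ABCA4 (0.035) and ABCB1 (0.045). ABCG2, with 12 counts in all DMSO ALDH1+ and 7 in all DMSO ALDH1- libraries, had a log2 fold change of 0.39 with an interval from -1.22 to 2.0, so its difference was not measurable at this depth.

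**Figure D5:**
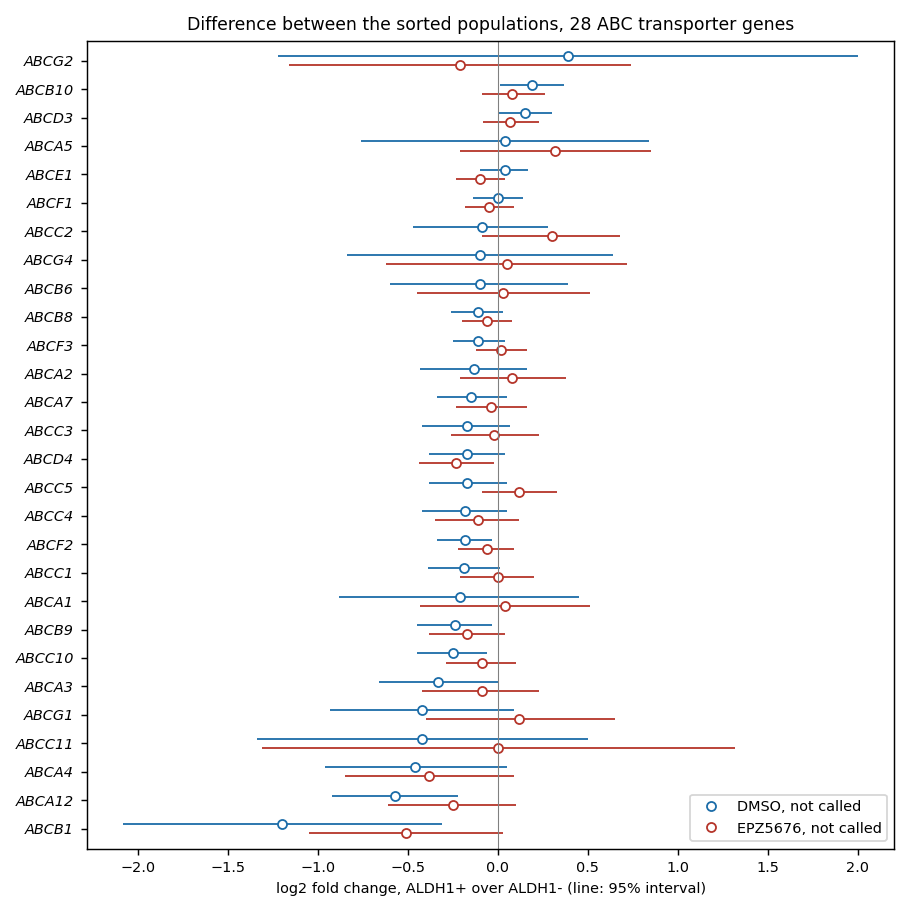
Log2 fold change of ALDH1+ over ALDH1- for 28 of the tested members in DMSO (blue) and EPZ5676 (red), with 95% intervals; open points mark that edgeR called none of them. Most blue points lie left of 0, ABCB1 and ABCA12 farthest among the genes with negative values, and ABCG2 has the widest interval.

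In EPZ5676 cells, edgeR again called 0 of 30 members between populations, and DESeq2, limma-voom and the block called 0. At an unadjusted p under 0.05 in edgeR, 0 were higher and 1 lower (ABCD4), beside 3.23% and 3.09% of all genes. Of all genes 0.0184% were called by edgeR without the block. Log2 fold changes of the members ran from -0.51 for ABCB1 (95% interval -1.05 to 0.03) to 0.32 for ABCA5 (-0.21 to 0.85). Averaged over both treatments, 0 members were called where 0.159% of all genes were. At an unadjusted p under 0.05 in edgeR, 2 members were higher and 7 lower, beside 9.37% and 10.2% of all genes. DESeq2 then called 0 higher and 1 lower, and limma-voom 0, with no share of all genes taken for either. The block called 6 lower (ABCA12, ABCA4, ABCB1, ABCA3, ABCB9, ABCD4) and 1 higher (ABCB10), beside 6.4% and 5.81% of all genes.

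The 15 untested members had few counts or none. ABCA6, ABCA8 and ABCD2 had 0 of 408848633 counts over all 12 libraries, which allows a level of up to 0.00734 CPM by counting error alone, and 8 others had 1 to 11 counts in all. The bile acid exporter ABCB11 had 9 counts, the sulfonylurea receptors ABCC8 and ABCC9, regulators of K-ATP channels, had 11 and 6, and the intestinal sterol pair ABCG5 and ABCG8 had 1 each. The largest totals were 54 for ABCC12, 45 for ABCA13, 27 for the phosphatidylcholine flippase ABCB4 and 21 for ABCC6. ABCA13 had 1, 0 and 0 counts in DMSO ALDH1+ and 4, 15 and 4 in EPZ5676 ALDH1+ libraries, and ABCB4 had 0, 0 and 1 and then 3, 8 and 7. The 15 and 8 counts came from EPZ5676 ALDH1+ library 2, which held 80195050 counts, and equal 0.188 and 0.1 CPM. In ALDH1- libraries ABCA13 had 3, 1 and 3 counts with DMSO and 3, 9 and 2 with EPZ5676. ABCB4 had 0, 1 and 3 and then 1, 2 and 1 there. Without the filter both were called higher in ALDH1+ cells (edgeR adjusted p = 0.0013 for ABCA13 and 0.0081 for ABCB4) and neither was called in ALDH1- cells.

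Other genes tied to these transporters were examined as lists chosen by function, by the same calls. Their counts stand beside 17.8% of all genes called higher and 13.7% lower in ALDH1+ cells and 13.6% and 9.04% in ALDH1- cells, and with lists this short several lie near those shares. Of 3 ABC proteins outside the symbol rule, 2 were tested, and both rose in both populations. TAP1 and TAP2, the pair that loads peptides for antigen presentation, had log2 fold changes of 0.53 (SE 0.09) and 0.77 (SE 0.09) in ALDH1+ cells and 0.48 (SE 0.09) and 0.76 (SE 0.09) in ALDH1- cells. Their edgeR adjusted p lay between 1.1e-05 and 0.0014.

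Of 8 tested liver X receptors, partners and targets outside the family, 1 rose and 3 fell in each population. APOE, the lipid acceptor for ABCA1, rose (log2 1.41, SE 0.24, in ALDH1+ and 1.62, SE 0.26, in ALDH1- cells). Its mean level was low, 0.658 CPM in DMSO ALDH1+ and 0.604 in DMSO ALDH1- cells against 1.75 and 1.87 CPM in EPZ5676. SREBF1, RXRA and LPCAT3 fell, with log2 fold changes of -0.88, -0.71 and -0.39 in ALDH1+ and -0.77, -0.72 and -0.49 in ALDH1- cells. Members of this list thus moved in both directions. Of 9 sterol trafficking partners, SOAT1, which esterifies cholesterol, and NCEH1, which hydrolyzes the esters, rose in both populations (0.91 and 0.67 in ALDH1+, 0.82 and 0.69 in ALDH1- cells). NPC2 rose in ALDH1- cells (0.26). Calls in this list were 2 higher and 1 lower in ALDH1+ and 3 and 1 in ALDH1- cells.

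Of 8 xenobiotic receptors and NRF2 genes, 1 rose and 1 fell in each population: TIPARP, a target of the aryl hydrocarbon receptor (1.49 and 1.28), and CYP1B1, another of its targets (-0.46 and -0.82). Of 13 glutathione genes, 0 rose and 3 fell in ALDH1+ cells and 1 rose and 3 fell in ALDH1- cells. GSR, which regenerates glutathione, changed by -0.69 and -0.40, MGST1 by -0.46 and -0.34 and GSTZ1 by -0.39 and -0.47, while GSTO1 rose in ALDH1- cells (0.40). Of 9 other drug transporters, the vault protein gene MVP rose (0.46 and 0.23) and the copper pump ATP7A fell (-0.84 and -0.71) in both populations. SLC19A1 fell in ALDH1+ cells (-0.31). SLC47A2 was called lower in both populations (-1.11 and -2.13), but held only 3, 9 and 6 counts in EPZ5676 ALDH1- libraries. It ran from 0.655 to 1.09 CPM in DMSO libraries and passed the filter's cutoff of 0.359 CPM only through them. The calls of SLC47A2 are therefore a description and support nothing.

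Of 9 peroxisomal genes, partners of the ABCD transporters, 3 fell in ALDH1+ and 2 in ALDH1- cells and 0 rose (medians -0.16 and -0.09 on the log2 scale), with HSD17B4, an enzyme of peroxisomal beta-oxidation, at -0.34 and -0.37. Of 9 mitochondrial iron and heme genes 0 were called in either population. Of 5 ribosome recycling partners of ABCE1, PELO rose (0.37 and 0.42) and ETF1, GSPT1, HBS1L and EIF3J were not called. Of the K-ATP channel pores 1 was tested, and KCNJ11 was called higher in ALDH1+ cells (0.62, SE 0.17, edgeR adjusted p = 0.014) and not in ALDH1- cells (0.30, SE 0.18, adjusted p = 0.27).

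Libraries held 24348594 to 80195050 counts. Of the epithelial markers, all 7 were detected in every group, with summed levels of 14700 to 19900 CPM, against 6.83 to 10.8 CPM for ESR1 and PGR together, of which PGR had at most a mean of 0.0117 CPM in a group. Markers of other cell types were low, and sums of the leukocyte and fibroblast genes were mostly higher with EPZ5676. The 5 leukocyte genes summed to 7.09 to 8.51 CPM in ALDH1+ libraries with DMSO and 9.24 to 12.3 with EPZ5676, and to 8.75 to 11.3 and 11.3 to 16.7 CPM in ALDH1- libraries. Most of that was CSF1R, whose mean went from 5.23 CPM in DMSO to 8.79 in EPZ5676 in ALDH1+ and from 7.25 to 11.5 in ALDH1- cells. PTPRC rose too, from 0.164 to 0.458 and from 0.169 to 0.713 CPM. CD14 went the other way, from 2.6 to 1.17 and from 2.21 to 1.6 CPM. CD3E was at or near 0. The 4 fibroblast genes summed to 8.89 to 14.2 and 10.6 to 13.5 CPM in DMSO ALDH1+ and ALDH1- and to 21.3 to 25 and 18.5 to 20.6 CPM in EPZ5676, nearly all of it COL1A1, and DCN was at 0 in every library. VWF and CDH5, the endothelial genes measured, summed to at most 0.938 CPM. The part of these genes' sources in the transporter values was not tested. Of the ALDH1 genes, nearly all of the level was ALDH1A3, and ALDH1A1 and ALDH1A3 together had 1510 to 1890 CPM in DMSO ALDH1+ against 1390 to 1410 in DMSO ALDH1- libraries, and 1830 to 2070 against 1420 to 1520 in EPZ5676. ALDH1A1 alone had 33.1 ± 5.2 CPM (SD, n = 3) in DMSO ALDH1+ and 25.3 ± 2.9 in DMSO ALDH1- libraries, against 11.8 ± 2.1 and 12 ± 1.8 in EPZ5676. The populations overlapped for ALDH1A1 in both treatments. In DMSO, ALDH1+ library 2 (27.9 CPM) lay below ALDH1- library 3 (28.6 CPM).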

How the data were processed

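Per the labels' protocols, a directional kit was used on total RNA. Trim Galore, STAR and build hg19 are listed in the submitters' processing notes. Which counter, strand setting and annotation followed is not given in the sources. The authors deposited whole-number read counts per gene, without normalization, in 1 column per library.

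The analysis used edgeR 4.0.16 under R 4.3.3. Genes were filtered by filterByExpr by group (cutoff 0.359 CPM), scaled by TMM (factors 0.975 to 1.021) and fitted over all 12 libraries with a term per group (biological coefficient of variation 9.6%). P-values come from the quasi-likelihood F test with Benjamini-Hochberg adjustment over 16327 genes, called under 0.05. SE is the log2 fold change over the square root of F. The fit was tested on simulated data. Symbols came from a reference list of gene names, and gene types and lengths from GENCODE 29, all matched by identifier. Intervals of 95% and counts cover the spread between libraries and counting error only.

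Replicate numbers pair the libraries: over 12354 genes, deviations from group means correlated at 0.17 to 0.65 in all 18 same-number pairs and at -0.66 to 0.22 between different numbers. Replicates differed by more than counting noise (chi-square per degree of freedom 3.74 to 30.41). For named members, the block is given where it changes a call of the treatment within a population.

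Alternatives were RLE scaling, total counts, no filter, at least 1 CPM in 3 libraries, DESeq2 1.42.0, limma-voom (limma 3.58.1), only the groups compared, the replicate block and each library left out; leaving out all libraries numbered 3 was added after seeing the data. The members, lists and tests were chosen with earlier results of these data known. Every tested member could be named, with library values for those called and for the pumps, and up to 4 genes by smallest p from each other list. Some genes that this rule allows are not reported here, though counts of calls include them.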

Additional observations from a re-analysis of the deposited data

How the results depend on the processing

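ABCB1, ABCA1, ABCA5, ABCA4 and ABCC4 were called higher in both populations in all 12 fits that left out 1 library. ABCA5 passed the filter of the main fit only through EPZ5676 libraries, so its calls are a description and support nothing. Members called higher in ALDH1+ cells numbered 5 and were 8 without the filter. The 1 member called lower there became 0 without the filter or with only the groups compared, and 3 with the replicate block or without all libraries numbered 3. The 4 called lower in ALDH1- cells became 7 by DESeq2, 8 with the block and 3 with total counts or without all libraries numbered 3. Of the 4, ABCB8 was lost with total counts (edgeR adjusted p = 0.054), no filter (0.18), only the groups compared (0.064) and without all libraries numbered 3 (0.086), and ABCC1 in the last of these (0.05). The 6 called higher in ALDH1- cells were 5 by limma-voom, which lost ABCG2, with at least 1 CPM in 3 libraries and with only the groups compared. Averaged over populations, the 6 called lower became 10 with the block. For ALDH1+ against ALDH1- in DMSO, members called lower went from 0 to 4 without the filter, 1 by DESeq2 and 4 with the block. Averaged over treatments, they went from 0 to 3, 1 and 6 under the same settings, and members called higher from 0 to 1 with the block. Shares of all genes called were taken only for the main fit and the replicate block, and are given above. Under the other settings, the fits with a library left out included, the members' counts are a description only.

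With each library left out in turn, members called higher ranged from 5 to 7 in ALDH1+ and from 5 to 6 in ALDH1- cells, and members called lower from 0 to 2 and from 0 to 6. The averaged treatment comparison ranged from 6 to 6 higher and 6 to 7 lower, and the averaged population comparison from 0 to 2 lower. Signs of treatment effects within a population changed only for members that were not called there, among them ABCG1 in ALDH1+ cells (from -0.33 to 0.09). Population differences of members not called also changed sign, such as those of ABCC11 (from -0.74 to 0.18) and ABCA5 (from -0.31 to 0.56) in DMSO. ABCC10 and ABCC3 in ALDH1+ cells were 0.02 and 0.04 without DMSO ALDH1+ replicate 1 (lowest over the libraries left out -0.12 and -0.16). ABCC2 in ALDH1+ cells was 0.0 and 0.02 without EPZ5676 ALDH1+ replicate 1 or 2 (lowest -0.35). ABCC5 in ALDH1- cells was 0.0 without DMSO ALDH1- replicate 2 and 0.01 without EPZ5676 ALDH1- replicate 1 (lowest -0.09). ABCD4, called lower when averaged, was -0.16 without all libraries numbered 3 (edgeR adjusted p = 0.13). The causes were not tested. Depth limits ABCG2, ABCC11, ABCA5, ABCB1 in DMSO ALDH1+ cells and the 15 untested members.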
